A study of Mus musculus with 18 samples.

Results

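The 10 genes described here carry absorbed fat through the enterocyte: Fabp1, Fabp2, Rbp2, Mogat2, Dgat1, Mttp, Apob, Apoa1, Apoa4 and Apoc3. They were chosen by platform symbol, the brightest probe set standing for a gene where several exist. Each of the 10 had exactly 1 probe set with its symbol, of 19938 genes measured, and all 10 were among the 17316 genes tested. RNA was measured on 18 Affymetrix arrays, with 3 arrays in each of 6 groups. The groups were tumours of male Stat3-/- mice (replicates 10 to 12) and male Stat3fl/fl mice (7 to 9), tumours of female Stat3-/- mice (16 to 18) and female Stat3fl/fl mice (13 to 15), and intestinal epithelial cells (IEC) of Stat3-/- mice (4 to 6) and Stat3fl/fl mice (1 to 3). Per the series text, the Stat3-/- animals carried floxed Stat3 alleles and a Cre recombinase driven by the Villin promoter, so that Stat3 was removed in the intestinal epithelium and not in stroma or leukocytes. The Stat3fl/fl controls carried the floxed alleles alone, and both genotypes were bred onto the APCmin/+ background, in which a mutated Apc allele activates WNT signalling. The labels give no age for any sample, and no sex or Apc genotype for the epithelial cells. The sample descriptions name a chemically induced colorectal tumour, whereas the series text speaks of APCmin tumours that form chiefly in small bowel, and no gut segment is given per sample. Below, Stat3-/- samples are called Stat3-deleted and Stat3fl/fl samples control.

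Dietary fat is digested to fatty acids and monoglycerides, which enterocytes take up, bind to small cytosolic carrier proteins and esterify again to triglyceride at the endoplasmic reticulum. The triglyceride is then loaded onto apolipoprotein B, gains further apolipoproteins and leaves the cell toward the lymph as a chylomicron. Vitamin A follows the same route. Most of these genes are known for high expression in villus enterocytes of the small intestine and lower expression in crypts and colon.

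The genes lie on 6 chromosomes (3, 6, 7, 9, 12 and 15). Apoa1, Apoc3 and Apoa4 are direct neighbours in the RefSeq annotation of GRCm38.p6, followed by Apoa5, which makes 4 apolipoprotein genes in a row. RefSeq promoter sequences (250 bases before to 50 bases after the start, 300 bases in all) matched 7 of the 10 genes. They were searched on both strands for CAAAGNNCA, the core shared by many binding sequences of HNF4 and PPAR nuclear receptors, because genes for these receptors are among the regulators described below. The letters occurred in 4 of 7 promoters, in 2 places in Rbp2 and 1 each in Fabp2, Apob and Apoa4, against 6.36% of 32851 promoters in the table. Those 4 promoters are shown 5′ to 3′ in lower case, with the matching letters (either strand) in capitals.
Rbp2 promoter, chr9:98490287-98490586, plus strand: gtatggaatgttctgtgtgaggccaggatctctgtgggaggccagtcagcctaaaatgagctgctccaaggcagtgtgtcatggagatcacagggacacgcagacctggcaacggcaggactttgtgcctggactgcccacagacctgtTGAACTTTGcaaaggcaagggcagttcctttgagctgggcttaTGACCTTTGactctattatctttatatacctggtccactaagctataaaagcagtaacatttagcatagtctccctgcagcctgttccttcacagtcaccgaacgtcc
Apoa4 promoter, chr9:46240594-46240893, plus strand: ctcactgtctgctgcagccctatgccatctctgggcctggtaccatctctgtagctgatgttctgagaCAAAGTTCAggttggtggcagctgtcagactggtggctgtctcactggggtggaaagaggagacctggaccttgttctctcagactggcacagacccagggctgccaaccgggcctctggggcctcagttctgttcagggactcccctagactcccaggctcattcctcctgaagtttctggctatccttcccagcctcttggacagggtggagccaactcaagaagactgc
Apob promoter, chr12:7977427-7977726, plus strand: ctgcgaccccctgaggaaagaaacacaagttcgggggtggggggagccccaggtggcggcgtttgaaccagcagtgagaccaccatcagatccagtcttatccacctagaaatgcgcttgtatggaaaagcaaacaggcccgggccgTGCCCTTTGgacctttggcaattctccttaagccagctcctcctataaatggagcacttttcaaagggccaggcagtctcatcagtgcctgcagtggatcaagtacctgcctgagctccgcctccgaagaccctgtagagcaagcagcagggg
Fabp2 promoter, chr3:122894822-122895121, plus strand: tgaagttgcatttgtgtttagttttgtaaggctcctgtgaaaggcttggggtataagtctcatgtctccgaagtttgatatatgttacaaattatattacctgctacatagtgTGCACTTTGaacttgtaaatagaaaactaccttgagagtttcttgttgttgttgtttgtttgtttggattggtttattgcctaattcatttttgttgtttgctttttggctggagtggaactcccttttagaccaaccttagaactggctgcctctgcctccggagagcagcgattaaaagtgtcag
The letters GTTAAT, part of many HNF1 binding sequences, occurred in 1 of 7 (Fabp1, against 7.1% of all promoters), the GATA letters AGATAA in 1 of 7 (Rbp2, against 11.2%) and the STAT letters TTCNNNGAA in 0 of 7 (against 8.3%). The matches within the Rbp2 promoter started at bases 150, 193 and 208 of the window, the last being the GATA letters, and did not overlap. The motif letters were chosen with the sequences in view, and a match describes letters in a window and is not evidence of binding.

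The check of the deletion held on every array: Stat3 was 7.74 to 8.46 on the log2 scale in the 6 Stat3-deleted tumours, against 10.03 to 10.35 in the 6 control tumours, and 7.73 to 7.95 in Stat3-deleted epithelial cells, against 9.74 to 9.91 in control epithelial cells. All values below are log2 expression values normalised by RMA, so a difference of 1 is a doubling. In 2 control tumours, male replicate 9 and female replicate 15, markers of the posterior gut stood apart. Hoxd13, a homeobox gene of the hindgut, was 8.25 and 9.10 there, and 4.82 to 5.59 in the other 10 tumours. The mean of 6 colon and posterior gut markers was 7.97 and 8.02 there, and 4.83 to 5.71 in the other 10 tumours. The results on the 10 genes in tumours are therefore given with and without these replicates.

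The level of the 10 genes was highest in epithelial cells and lower in tumours, and it varied little between epithelial arrays and much between tumours. Averaged over the 10 genes, the level was 11.42 ± 0.35 in Stat3-deleted and 10.63 ± 1.36 in control male tumours, 11.38 ± 0.58 in Stat3-deleted and 10.49 ± 1.29 in control female tumours, and 12.41 ± 0.07 in Stat3-deleted and 12.53 ± 0.11 in control epithelial cells (SD, n = 3 each). The large spread of both control tumour groups came from replicates 9 (9.06) and 15 (9.003), while the other 10 tumours lay between 10.75 and 11.90. For each of the 10 genes these replicates were the lowest 2 of the 12 tumours, replicate 9 being the lowest for 5 genes and replicate 15 for the other 5. Stat3-deleted female replicate 18 came next, among the lowest 3 tumours for 8 genes, and Stat3-deleted female replicate 16 was the highest tumour for 6. Ordered by group mean, both epithelial groups ranked above the 4 tumour groups for all 10 genes. In that order the arrays of neighbouring tumour groups overlapped for every gene, and those of the pair of epithelial groups overlapped for 9 of 10, Apob being the exception.

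**Figure D1:**
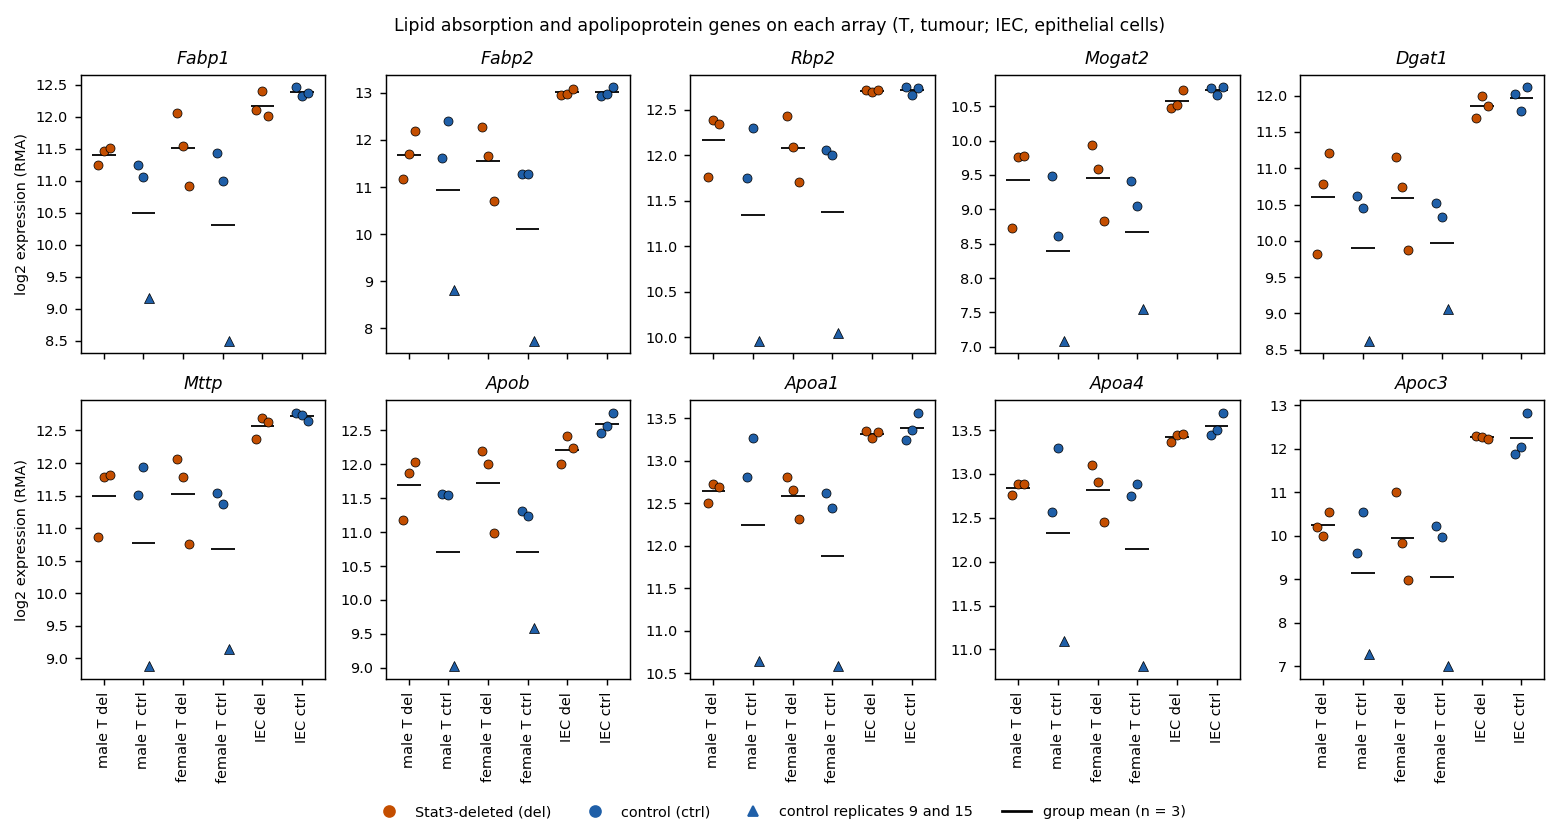
Log2 expression (y axis, RMA values) of the 10 genes in the 6 groups (x axis), with 1 point per array and a line at each group mean of 3 arrays; triangles mark control replicates 9 and 15. The triangles lie below every other tumour in each panel (Fabp2 8.81 and 7.74, against 10.71 to 12.39 in the other 10 tumours), and the epithelial arrays lie at or near the top. The highest tumour lies above the lowest epithelial array for Fabp1 (12.06 and 12.01), Apob (12.20 and 12.01) and Apoa1 (13.27 and 13.25).

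Control tumours were compared with control epithelial cells, which asks how the genes differ between tumour and epithelium where Stat3 is present. All 10 genes were lower in tumours (limma, adjusted p from 0.000623 to 0.0195), with a median difference of -1.99. Over all 17316 genes the median difference was -0.08, and 35.3% were called lower, so a call by itself is common in this comparison. The arrays did not overlap for 9 of the 10 genes, while 26.3% of all genes had every tumour array below every epithelial array. Apoa1 was the exception, with 13.27 in control male tumour replicate 8 and 13.25 in control epithelial replicate 1. Without replicates 9 and 15 all 10 genes were still called lower (adjusted p from 0.00022 to 0.00901), but the median difference shrank to -1.19, and 29.9% of all genes were called lower. These are bulk samples, in which fewer enterocytes and less RNA per enterocyte cannot be told apart.

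Among the carrier proteins, Fabp2, the intestinal fatty acid-binding protein, had 11.63, 12.39 and 8.81 in control male tumours and 11.28, 11.29 and 7.74 in control female tumours, against 12.94, 12.98 and 13.12 in control epithelial cells. Every tumour lay below every epithelial array, and the tumours with posterior markers lay lowest. Fabp2 fell by 2.49 ± 0.73 (SE), a 5.61-fold difference (limma adjusted p 0.00783), and without replicates 9 and 15 the difference was -1.36 ± 0.30 (0.00185). Fabp1, the liver-type fatty acid-binding protein that enterocytes also make, had 11.25, 11.06 and 9.17 in control male and 11.44, 10.99 and 8.51 in control female tumours, against 12.46, 12.33 and 12.37 in control epithelial cells. It fell by 1.99 ± 0.52 (adjusted p 0.00362), and the difference was -1.21 ± 0.22 without the 2 tumours (0.000404). Rbp2, which carries retinol within the enterocyte, fell by 1.36 ± 0.45 (adjusted p 0.014) and the difference was -0.69 ± 0.20 without them (0.00901). Its epithelial values spanned only 12.66 to 12.75, and its tumour values other than replicates 9 (9.96) and 15 (10.04) lay between 11.71 and 12.44.

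The enzymes of triglyceride synthesis showed clear gaps. Mogat2, which joins a fatty acid to monoglyceride, had 9.49, 8.61 and 7.09 in control male and 9.41, 9.04 and 7.55 in control female tumours, against 10.77, 10.67 and 10.78 in control epithelial cells. It fell by 2.21 ± 0.45, a 4.62-fold difference (limma adjusted p 0.000623), and the difference was -1.60 ± 0.29 without replicates 9 and 15 (0.000374). Dgat1, which adds the last fatty acid to make triglyceride, had 10.61, 10.45 and 8.63 in control male and 10.51, 10.32 and 9.07 in control female tumours, against 12.02, 11.78 and 12.12 in control epithelial cells. It fell by 2.04 ± 0.43 (adjusted p 0.000779), and the difference was -1.498 ± 0.30 without the 2 tumours (0.000826). For both enzymes the highest control tumour thus lay at least 1 log2 unit below the lowest control epithelial array.

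Of the genes of chylomicron assembly, Mttp encodes the transfer protein that loads lipid onto apolipoprotein B. It had 11.50, 11.93 and 8.88 in control male and 11.53, 11.37 and 9.14 in control female tumours, against 12.77, 12.73 and 12.65 in control epithelial cells. Mttp fell by 1.99 ± 0.58 (limma adjusted p 0.00723), and the difference was -1.13 ± 0.28 without replicates 9 and 15 (0.00361). Apob, the structural protein of the chylomicron, had 11.56, 11.55 and 9.02 in control male and 11.31, 11.24 and 9.59 in control female tumours, against 12.47, 12.56 and 12.76 in control epithelial cells. It fell by 1.88 ± 0.49 (adjusted p 0.00364), and the difference was -1.18 ± 0.26 without the 2 tumours (0.00153).

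Of the smaller apolipoproteins, Apoc3, an inhibitor of triglyceride clearance from the blood, showed the widest gap of the 10 genes. It had 9.61, 10.54 and 7.29 in control male and 10.22, 9.97 and 6.999 in control female tumours, against 11.88, 12.05 and 12.83 in control epithelial cells. Apoc3 fell by 3.15 ± 0.68, an 8.855-fold difference (limma adjusted p 0.000976), and the difference was -2.17 ± 0.36 without replicates 9 and 15, a 4.49-fold difference (0.00022). Its neighbours differed less: Apoa1, the main protein of high-density lipoprotein, fell by 1.33 ± 0.46 (adjusted p 0.0195), and Apoa4, which is secreted with chylomicrons, fell by 1.31 ± 0.42 (0.0127). Without the 2 tumours these differences were -0.61 ± 0.16 for Apoa1 and -0.67 ± 0.18 for Apoa4 (0.00594 and 0.00687). Apoa1 and Apoa4 thus differed by similar amounts, and Apoc3 by more. Their signal levels were unlike too: over the 18 arrays Apoa1 averaged 12.68 and Apoa4 12.85, against 10.49 for Apoc3. The highest value of any probe set was 14.59. Whether signal level bears on the size of these differences was not tested. A test of one gene's change against another's was not run. The Apoa1 call was lost without control epithelial replicate 3 (adjusted p 0.0694). When the fit held no other groups than these 3, 7 of the 10 genes passed, and Rbp2 (0.0549), Apoa4 (0.0551) and Apoa1 (0.075) did not. With male tumours only 8 passed, and Fabp2 (-2.07, adjusted p 0.0504) and Apoa1 (-1.15, 0.0793) did not. In both alternatives the number of all genes called stayed within 1.5 times that of the fit with all groups.

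In Stat3-deleted tumours against Stat3-deleted epithelial cells, all 10 differences were again negative, with a median of -0.89, and 3 genes were called lower (limma), where 36.2% of all genes were. The called genes were Apoc3 (-2.18 ± 0.68, adjusted p 0.0102), Dgat1 (-1.25 ± 0.43, 0.0169) and Mogat2 (-1.14 ± 0.45, 0.0339). Apoc3 had 10.20, 10.01 and 10.54 in Stat3-deleted male and 10.998, 9.84 and 8.99 in Stat3-deleted female tumours, against 12.30, 12.28 and 12.24 in Stat3-deleted epithelial cells. The other 7 had adjusted p from 0.104 (Fabp2, -1.39) to 0.369 (Apob, -0.51). The spread that the test uses is shared by all 6 groups. It was 0.60 to 1.04 (SD) for these genes, while the pooled SD was 0.04 to 0.36 within epithelial groups and 0.82 to 1.47 within tumour groups. With control replicates 9 and 15 left out of the fit, which changes no Stat3-deleted array, 9 of 10 genes were called lower, Apob being the exception (adjusted p 0.0697), beside 36.8% of all genes. A fit of these 3 groups alone also called 9, and the number of all genes called there stayed within 1.5 times that of the fit with all groups. The call of Mogat2 was lost when replicate 4, 5, 6, 10 or 18 was left out (lowest adjusted p 0.0688, highest 0.0972), and that of Dgat1 without replicate 5 (0.0554). Mogat2 also did not pass with each array centred on its median (-1.07, adjusted p 0.0512) or with male tumours only (-1.15, 0.0689). The arrays did not overlap for 8 of the 10 genes, the exceptions being Fabp1 and Apob, against 28.8% of all genes.

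**Figure D2:**
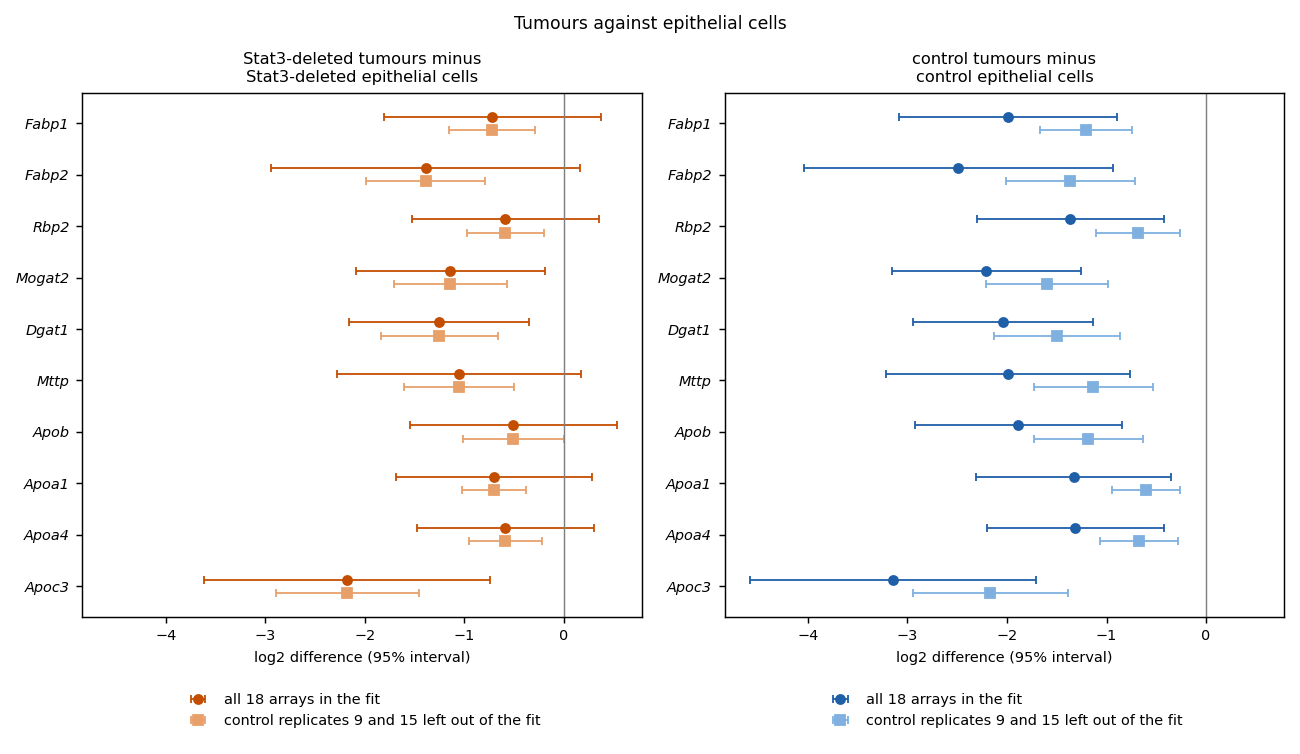
Log2 difference (x axis) of tumours minus epithelial cells for each gene, in Stat3-deleted (left) and control samples (right), with 95% intervals from limma; circles use all 18 arrays and squares leave out control replicates 9 and 15. All circles lie below 0; the control differences are smaller without the 2 tumours (Apoc3 -2.17 in place of -3.15), and the Stat3-deleted ones keep their position with narrower intervals.

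Other genes of the pathway were counted in fixed lists for control tumours against control epithelial cells, a comparison in which 35.3% of all genes were called lower and 30.4% higher. Of 11 genes of fatty acid uptake and activation, 6 fell and 4 rose (limma). Slc27a2 (-3.29 ± 0.54, adjusted p 0.000108) and Slc27a4 (-2.57 ± 0.36, 3.01e-05), which import and activate fatty acids, fell, as did the scavenger receptor Cd36 (-1.76 ± 0.59, 0.0158), which did not pass without replicates 9 and 15 (-1.24, 0.0608). The rises were in Acsl4 (3.71), which activates arachidonic acid, in Fabp5 (1.18), a fatty acid-binding protein of skin and other tissues, in Slc27a1 (1.12) and in Ffar4 (1.07), a receptor for long-chain fatty acids. Of 17 genes of triglyceride synthesis and lipid droplets, 9 fell and 4 rose. Gpat3 (-2.71), an acyltransferase of the first step, the droplet protein Cidec (-2.48) and the lipase Lipe (-2.10) fell, whereas the acyltransferases Gpam (1.51) and Gpat4 (0.81), the phosphatase Lpin1 (0.95) and the monoglyceride lipase Mgll (0.35) rose. Dgat2, the other enzyme of the last step, fell by 1.84 ± 0.34 (adjusted p 0.000292). In both lists the members thus moved both ways, and the 4 rises in each are close to or below the share of all genes called higher.

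Of 17 genes of chylomicron assembly and export, 11 fell and 1 rose. The largest falls were in Tm6sf2 (-2.05 ± 0.53, limma adjusted p 0.00328) and Cideb (-2.02 ± 0.48, 0.00188), which aid the lipidation of apolipoprotein B particles, and Sec23a (-1.72), a coat subunit of vesicles that leave the endoplasmic reticulum. Sar1b, the small GTPase needed for chylomicron exit, fell by 0.99 ± 0.18 (adjusted p 0.000301), while its relative Sar1a rose by 0.64 ± 0.15 (0.00145). Of 8 other apolipoprotein genes, 5 fell, Apoa5 the most (-0.62), and 2 rose: Apoe (2.54 ± 0.33, adjusted p 1.23e-05), which macrophages and many other cells make, and Apod (1.07). The mean level of that list, over 9 measured genes, was low, at 5.57 to 6.09 on the 18 arrays, whose medians were 5.88 to 6.07. Of 5 genes of sterol absorption and efflux, 3 fell, namely those of the sterol importer Npc1l1 (-2.96) and the exporter subunits Abcg5 (-2.60) and Abcg8 (-2.24). Of 10 genes of retinoid absorption, 6 fell and 2 rose. Rdh7 (-2.87), Aldh1a1 (-2.81) and Lrat (-1.82), which esterifies retinol, fell, whereas the retinol receptor Stra6 (2.68) and the retinol dehydrogenase Rdh10 (1.82) rose. Without replicates 9 and 15 the list medians were -0.60 for fatty acid uptake, -0.58 for triglyceride synthesis, -0.42 for chylomicron assembly, -0.41 for the other apolipoproteins, -1.496 for sterol transport and -0.77 for retinoid absorption, against -0.58, -0.63, -0.58, -0.44, -2.24 and -1.39 with all arrays. Npc1l1 then stood at -2.11 and Aldh1a1 at -2.02. The counts were the same in 4 of these 6 lists, and 1 fall fewer passed in the uptake list (Cd36) and in the retinoid list (the homeobox gene Isx, -0.64, adjusted p 0.0806).

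Of 17 regulators of enterocyte lipid genes, 12 fell and 1 rose in control tumours against control epithelial cells, with a median of -1.09. The falls were in the nuclear receptor genes Hnf4g (-2.27 ± 0.54, limma adjusted p 0.00199), Hnf4a (-0.85 ± 0.26, 0.00915), Ppard (-1.09), Rxra (-0.90) and Nr1h3 (-1.71), in the coactivator Ppargc1a (-1.72), in Creb3l3 (-2.14 ± 0.50, 0.00182), a membrane-bound factor that in mouse liver and intestine activates apolipoprotein genes, in Gata4 (-1.38) and Gata6 (-0.90), in Cdx2 (-1.17), Klf4 (-1.69) and the sugar-responsive factor Mlxipl (-1.39). Srebf1, a driver of lipid synthesis, rose by 0.75 ± 0.16 (adjusted p 0.000691). Ppara (-1.01), Pparg (-0.15), Nr1h4 (-0.32) and Cdx1 (-0.32) did not pass (adjusted p 0.0518, 0.653, 0.533 and 0.109). Without replicates 9 and 15, 11 fell, Cdx2 not passing (-0.42, adjusted p 0.0504), and the median was -0.68. Hnf4a then stood at -0.50 (0.0199) and Gata4 at -0.61 (0.00643).

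**Figure D3:**
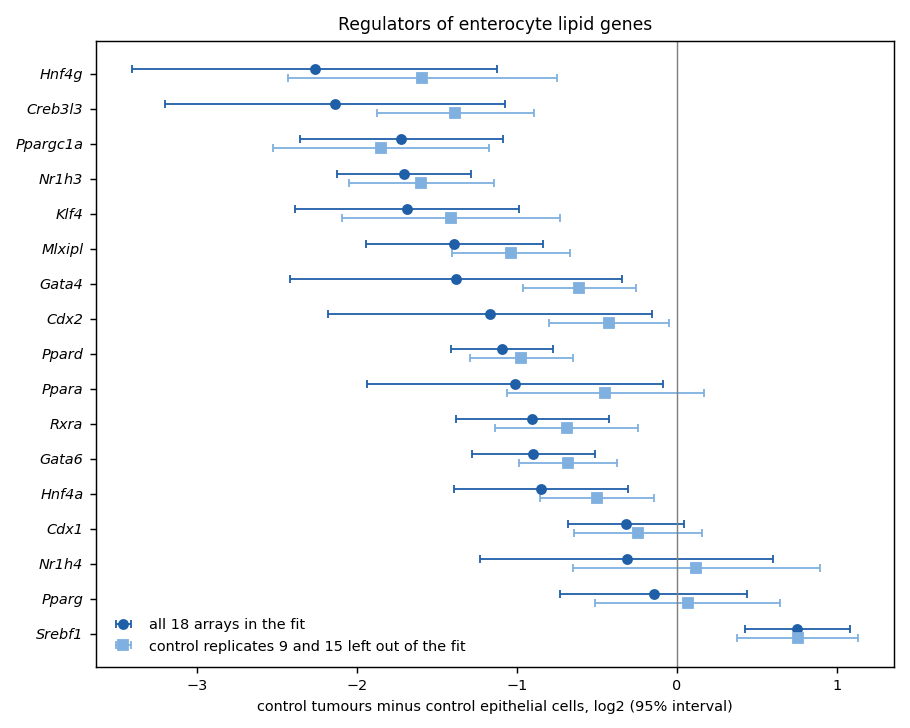
Log2 difference (x axis) of control tumours minus control epithelial cells for 17 regulators, with 95% intervals from limma; circles use all 18 arrays and squares leave out control replicates 9 and 15. Most regulators lie below 0 (Hnf4g -2.27, or -1.59 without the 2 tumours), and Srebf1 lies above it (0.75, or 0.76).

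The genes whose values were most like the mean of the 10 genes over the 12 tumours were Creb3l3, Ccl25, Ces2e, Acsl5, Nags, Hkdc1, Cyp4f14 and Krt20. Likeness was Pearson's r over the 12 tumours, given as a description: it was 0.976 (Krt20) to 0.993 (Creb3l3), and over the 10 tumours without replicates 9 and 15 it was 0.823 (Krt20) to 0.975 (Ccl25). Creb3l3 had 8.82, 9.54 and 9.51 in Stat3-deleted male and 6.84 (replicate 9), 9.20 and 9.52 in control male tumours. It had 9.72, 9.52 and 8.68 in Stat3-deleted female and 9.16, 9.09 and 7.13 (replicate 15) in control female tumours. It was thus lowest in the same 2 tumours as the 10 genes and next lowest in replicate 18.

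Several lists of cell type markers also differed between tumours and epithelial cells, in both directions, and their part in the results was not tested. The counts below stand beside 35.3% of all genes called lower and 30.4% called higher. Of 11 absorptive enterocyte markers, 11 fell in control tumours against control epithelial cells, with a median of -2.79 (-1.54 without replicates 9 and 15), among them lactase (Lct, -4.46), trehalase (Treh, -3.79) and the peptide transporter Slc15a1 (-3.34). Their mean level was 9.62 to 11.11 in Stat3-deleted tumours and 8.36 to 10.62 in control tumours, against 11.83 to 12.24 in Stat3-deleted and 12.23 to 12.51 in control epithelial cells. Of 6 general epithelial markers, 2 rose (Krt18 and Krt19) and 1 fell (Cldn7), and their mean level was 11.70 to 12.09 over the 12 tumours and 11.41 to 11.72 over the 6 epithelial arrays. Epcam, a surface protein of all intestinal epithelial cells, differed by -0.09 (adjusted p 0.598). Of 10 fibroblast, muscle and endothelial markers, 10 rose, with a median of 3.42 and mean levels of 9.36 to 10.23 over the tumours and 6.13 to 6.65 over the epithelial arrays. The highest of these was in Stat3-deleted female replicate 18, which was also low for the 10 genes. Of 9 leukocyte markers, 6 rose and 1 fell (5 and 1 without replicates 9 and 15). Of 6 colon and posterior gut markers none passed, and without replicates 9 and 15, 3 fell (Hoxd13 -0.58, Hoxb13 -0.56 and Hoxd12 -0.45). These signals were low: the list mean was 4.83 to 5.71 in the other 10 tumours and 5.54 to 5.96 over the epithelial arrays. The median of an array was 5.88 to 6.07 and its 25th percentile 4.30 to 4.57. Whether low signal bears on these falls was not tested. Of 5 ileum markers, 5 fell, with mean levels of 5.5999 to 6.48 in Stat3-deleted and 5.77 to 9.26 in control tumours, against 8.88 to 9.25 over the epithelial arrays, so gut segment cannot be told apart from tissue. Of 5 proximal small intestine markers, 2 fell (1 rose and 2 fell without replicates 9 and 15), and of 6 crypt and cell division markers, 5 rose. Of 5 liver markers 2 rose and 1 fell, with a median of -0.08, and of 5 pancreas markers 1 rose and 3 fell. Albumin (Alb), picked from the liver list, was 5.52 to 9.73 over the tumours and 4.55 to 5.28 over the epithelial arrays.

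**Figure D4:**
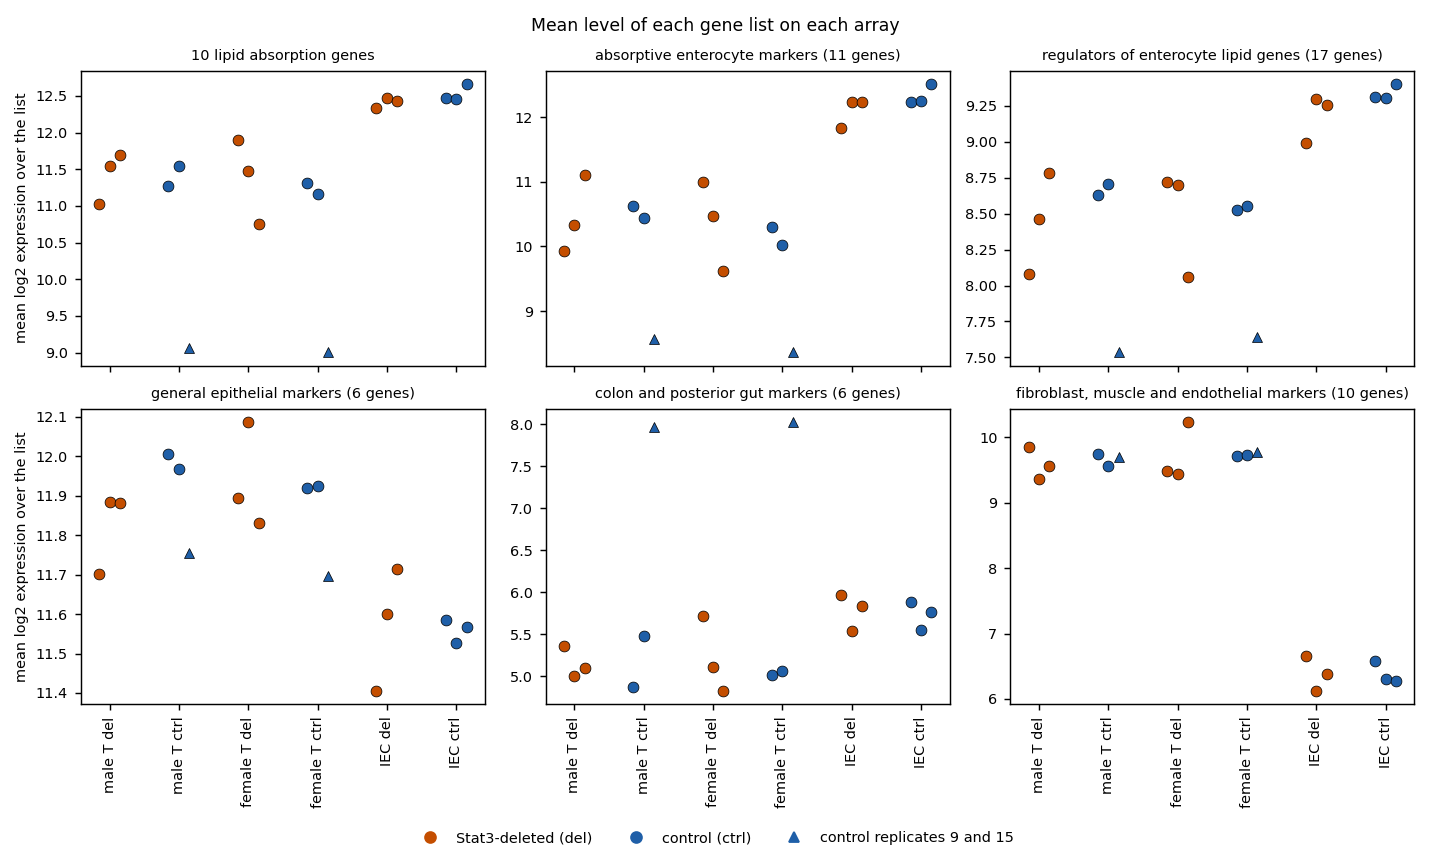
Mean log2 level (y axis) of the 10 genes and of 5 gene lists on each array, by group (x axis; T, tumours; del, Stat3-deleted; ctrl, control); triangles mark control replicates 9 and 15. The 10 genes, the enterocyte markers and the regulators are lowest in the 2 tumours in which the posterior gut markers are high (7.97 and 8.02), while the general epithelial markers of those tumours (11.75 and 11.70) stay above or within the range of the epithelial arrays.

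In epithelial cells, Stat3 deletion left no called difference in the 10 genes. None passed in limma, 0 had an unadjusted p under 0.05, and 0.0231% of all genes were called. The differences of Stat3-deleted minus control cells ran from -0.38 (Apob) to 0.02 (Apoc3), with a median of -0.13, beside 0.00 over all genes. In the fit with all groups their standard errors were 0.49 to 0.85. With only the 6 epithelial arrays in the fit, standard errors were 0.13 to 0.22, and the 95% intervals lay within -0.72 to 0.50. Apob, the gene with the largest difference, had 12.01, 12.41 and 12.23 in Stat3-deleted cells, against 12.47, 12.56 and 12.76 in control cells. Its arrays did not overlap, as was so in this direction for 7.81% of all genes, and it did not pass (-0.38 ± 0.16, adjusted p 0.657, unadjusted p 0.0343, in the fit of 6 arrays). Fabp2 had 12.96, 12.98 and 13.09 in Stat3-deleted cells, against 12.94, 12.98 and 13.12 in control cells, a difference of 0.00 with an interval of -0.29 to 0.28. Rbp2 differed by -0.01, with an interval of -0.29 to 0.27. The mean level of 9 leukocyte markers was 6.36 to 6.88 in Stat3-deleted and 6.15 to 6.35 in control cells. None of the 9 passed, and their median difference was 0.06. Cd3e (1.06), Cd8a (0.94), Ptprc (0.88), Cd79a (0.49) and Cd68 (0.06) were positive, while Csf1r, Itgam, S100a8 and S100a9 were negative. The part of leukocyte RNA in the differences of the 10 genes was not tested.

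In tumours, the 10 genes had higher group means where Stat3 was deleted, and none passed. Averaged over both sexes, all 10 differences of Stat3-deleted minus control tumours were positive, from 0.55 (Apoa1) to 1.10 (Fabp2), with a median of 0.84, beside -0.04 over all genes. The 10 genes moved together over the 12 tumours, so their shared sign does not count as 10 separate observations. The median Pearson r between pairs was 0.95 (lowest 0.83), and 0.74 (lowest 0.04) without replicates 9 and 15. In limma 0 passed (adjusted p 0.31 to 0.631) and 3 had an unadjusted p under 0.05 (Apob, Fabp1 and Mogat2). Over all genes 0.71% were called, and 12% had an unadjusted p under 0.05. The groups overlapped for every gene. Fabp1 had 11.24, 11.47 and 11.51 in Stat3-deleted male tumours, against 11.25, 11.06 and 9.17 in control male tumours, and 12.06, 11.54 and 10.91 in Stat3-deleted female tumours, against 11.44, 10.99 and 8.51 in control female tumours. Its difference was 1.05 ± 0.42 (adjusted p 0.31), with 2 control tumours far below the rest. Apob had 11.18, 11.88 and 12.04 in Stat3-deleted male and 12.20, 11.998 and 10.99 in Stat3-deleted female tumours, set against the control values above, and differed by 1.0015 ± 0.40 (adjusted p 0.31).

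Without control replicates 9 and 15, the differences in tumours were small and of both signs. The median was 0.05, and 6 of 10 were positive, from -0.17 (Apoa1) to 0.30 (Mogat2), with adjusted p from 0.719 to 0.994. Fabp1 then differed by 0.27 ± 0.19, Apob by 0.30 ± 0.22, Fabp2 by -0.03 ± 0.26 and Apoc3 by 0.01 ± 0.31. The signs turned for Fabp2, Mttp, Apoa1 and Apoa4. Mogat2 averaged 9.44 in the 6 Stat3-deleted tumours and 9.14 in the 4 remaining control tumours, with ranges of 8.73 to 9.94 and 8.61 to 9.49. The 95% interval for Apoa1 was -0.46 to 0.12, and that for Fabp2 was -0.57 to 0.52. In males alone the median was 0.79 with all arrays and 0.11 without replicate 9, and in females alone 0.82 and 0.13 without replicate 15. None of the 10 genes passed in either sex (limma, adjusted p 0.71 to 0.976 in males and 0.997 in females; 0 with an unadjusted p under 0.05 in each), beside 0.231% and 0.104% of all genes called.

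**Figure D5:**
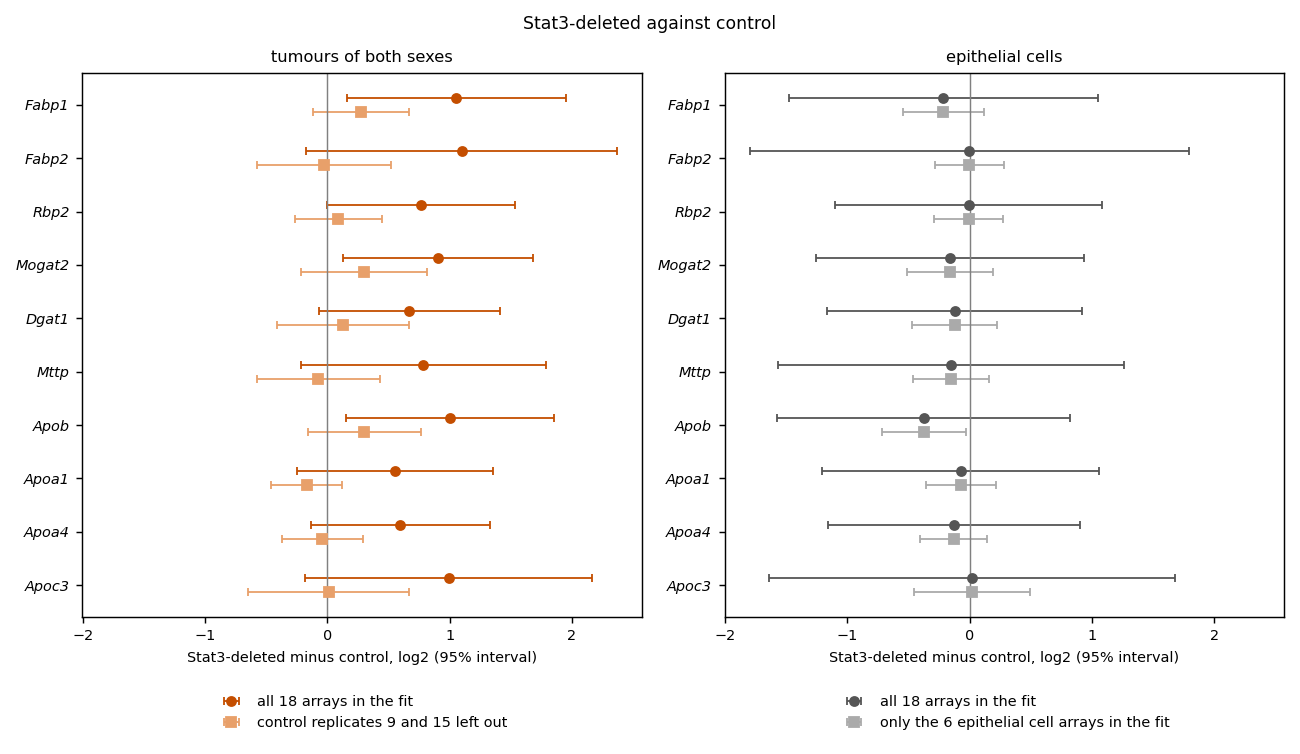
Log2 difference (x axis) of Stat3-deleted minus control for each gene, in tumours (left) and epithelial cells (right), with 95% intervals from limma. Squares show the fit without control replicates 9 and 15 (left; Fabp2 -0.03 in place of 1.10) and the fit of the 6 epithelial arrays alone (right), and nearly all squares lie close to 0, with Apob in epithelial cells (-0.38) the farthest from it.

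The effect of deletion was also compared between tissues and between sexes. The tumour effect minus the epithelial effect was positive for all 10 genes, with a median of 0.95, and 0 passed in limma (adjusted p 0.538 to 0.736; 0 with an unadjusted p under 0.05), beside 0.0116% of all genes. Without replicates 9 and 15 the median was 0.09, and Apob had the largest value (0.68 ± 0.35, adjusted p 0.562). The female minus the male effect had a median of 0.08 (0.097 without replicates 9 and 15) and 0 genes passed (adjusted p of 1, 0 with an unadjusted p under 0.05), beside 0% of all genes. Male minus female tumours, averaged over genotypes, differed by -0.15 (Mogat2) to 0.49 (Fabp2), with a median of 0.03 (0.09 without replicates 9 and 15) and 0 passing (adjusted p 0.811 to 0.994, 0 with an unadjusted p under 0.05), beside 0.0231% of all genes. Among the pathway lists, deletion in tumours of both sexes lowered Ffar4 (-0.87 ± 0.15, adjusted p 0.00998), whose arrays did not overlap, and Apod (-0.95 ± 0.17, 0.0125), whose arrays did. Ffar4 was 5.51 to 6.29 in Stat3-deleted and 6.42 to 7.32 in control tumours. Without replicates 9 and 15 both still passed (-1.01 and -0.99, adjusted p 0.00259 and 0.0145), and so did Fabp6, the bile acid-binding protein of the ileum (-3.60 ± 0.60, 0.00507), which with all arrays had -2.89 and an adjusted p of 0.0946. The ileum markers, a list that holds Fabp6, moved with it in part. Without replicates 9 and 15, 2 of 5 fell, with a median of -0.71, where 0.589% of all genes were called lower. That median was -1.37 in males (2 of 5 fell) and -0.06 in females (0 of 5). With all arrays, 1 of 5 fell in both sexes together, with a median of -0.19. The mean level of the ileum markers was 5.5999 to 6.48 in Stat3-deleted tumours, and among control tumours replicate 8 stood apart at 9.26. Fabp6 was 4.27 to 4.62 in Stat3-deleted tumours and 4.78 to 11.10 in control tumours, replicate 8 being the highest, and the part of gut segment in this was not tested. No member of the other 5 pathway lists passed in limma, with an unadjusted p under 0.05 for 2 genes of triglyceride synthesis, 2 of chylomicron assembly, 1 of sterol transport, 3 of retinoid absorption and 3 regulators, of 17, 17, 5, 10 and 17 tested, where 12% of all genes had one. The 11 enterocyte markers had a median difference of 0.72 in that comparison, and of -0.04 without replicates 9 and 15, with 0 passing in either (5 with an unadjusted p under 0.05 with all arrays).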

How the data were processed

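Expression was measured on 18 arrays in 6 groups of 3, placed by the labels' titles and tags. The authors deposited log2 values normalised by RMA, per the submitters' processing notes; the version is not given in the sources used here, and these values were used as deposited. Of 35556 probe sets, 21789 had 1 gene symbol in the platform annotation, 1621 had several and 12146 were not listed there; a gene took its probe set with the highest mean. Genes above the array's 25th percentile in at least 3 arrays were tested, 17316 of 19938. Group means were fitted over all 18 arrays with limma 3.58.1 (R 4.3.3; lmFit, then eBayes with an intensity trend), and 9 contrasts were tested two-sided, with Benjamini-Hochberg adjustment over all tested genes and a threshold of 0.05. Array number limits the precision. The labels do not say that samples came from separate animals, so p-values reflect only how far these samples varied, possibly for technical reasons. No pair of arrays held identical values. The fit was tested on simulated data that gave a gene the same spread in all 6 groups. The 10 genes spread more in tumours than in epithelial cells, which that test does not cover. The 10 genes, the gene lists, the motifs and the tests were chosen with earlier results of these data known. Beside the 10 genes, the text names up to 3 rises and 3 falls per pathway list without overlap between arrays, the regulators in full and the 8 genes most like the 10 over the tumours. Dgat2, Sar1b, Ffar4, Mgll, Fabp6, Isx, Abcg8, Apod (under deletion) and the single markers were picked after their values were seen. Alternatives were other scalings, filters, probe set rules and array weights, fits of fewer groups, and leaving out replicates; list counts without replicates 9 and 15 were added after seeing the data.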

Additional observations from a re-analysis of the deposited data

How the results depend on the processing

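No paired analysis was possible because the replicate numbers run once through all samples and no number is shared between groups. In Stat3-deleted tumours against Stat3-deleted epithelial cells, 3 of the 10 genes were called lower, against 6 with array weights, 9 without control replicates 9 and 15, 9 in a fit of the compared groups alone, and 1 to 3 when a replicate was left out (1 without replicate 5). The number of all genes called in this comparison stayed within 1.5 times the reported count under each of these. For deletion in tumours of both sexes, 0 of the 10 genes were called, and 1 with array weights (Apob, 1.11, adjusted p 0.0370 there, and 0.31 with equal weights). The causes were not tested. No called difference changed sign under the alternatives run. Over all genes, calls for deletion in epithelial cells numbered 4, against 1134 with array weights and 2 when any 1 replicate was left out. In male tumours they numbered 40, against 117 without replicates 9 and 15, 2 in a fit of the compared groups, and 13 (without replicate 11) to 84 (without replicate 9) when a replicate was left out. In female tumours they numbered 18, against 745 with array weights, 0 in a fit of the compared groups, and 10 (without replicate 13) to 30 (without replicate 18) when a replicate was left out. In both sexes they numbered 123, against 1414 with array weights, 202 without replicates 9 and 15, 43 in a fit of the compared groups and 64 (without replicate 16) to 265 (without replicate 18) when a replicate was left out. For the tumour minus the epithelial effect they numbered 2, against 1038 with array weights, 8 without replicates 9 and 15, and 1 to 10 (without replicate 18) when a replicate was left out. The other 167 counts of called genes among the 10, over all comparisons and alternatives, stayed within 1.5 times the reported count. With 3 arrays a group, array number limits the precision.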
